A study of Mus musculus with 12 samples.

Results

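The genes described here are 9 ATP-binding cassette (ABC) transporters that export dyes or drugs from cells or are close relatives of such pumps: Abcb1a, Abcb1b, Abcb4, Abcg2, Abcc1, Abcc2, Abcc3, Abcc4 and Abcc5. They were chosen by name because the study sorted living cells on their content of a dye, and each matched 1 of 25206 probe sets. RNA came from female mouse ESC (embryonic stem cells) and from iPSC (induced pluripotent stem cells, made by reprogramming somatic cells), both of C57BL/6 background, with no further allele named in the labels. Both cell types were grown undifferentiated on gelatin in serum-free, feeder-free 2iLIF medium, loaded with tetramethylrhodamine methyl ester (TMRM), and sorted by its fluorescence into low and high fractions. TMRM is a fluorescent lipophilic cation that gathers in mitochondria with their membrane potential, and the study asked how the transcriptome differs between those fractions. The 4 groups are ESC low, ESC high, iPSC low and iPSC high, each with 3 Affymetrix arrays numbered 2, 3 and 4. The labels do not say how many lines or clones were used, or that arrays of a group came from separate cultures, so p-values measure only how these samples spread, and that spread may be technical.

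ABC transporters use ATP to move substrates across membranes. P-glycoprotein, which mouse encodes in a pair of neighbouring genes (Abcb1a and Abcb1b), pumps lipophilic cations such as rhodamine dyes out of the cell, Abcg2 exports the Hoechst dye that defines side-population cells, and the Abcc members (multidrug resistance-associated proteins) export organic anions and glutathione conjugates. A pump that accepts a dye lowers what the cell retains of it, so dye content can depend on export as well as on membrane potential; only mRNA was measured here, not export.

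All values are log2 expression from robust multi-array averaging (RMA), which the authors deposited, and the differences below are on that log2 scale. The lower quartile of the arrays lay between 2.08 and 2.20, the median between 3.51 and 3.61 and the upper quartile between 5.93 and 6.07, and array pairs correlated across probe sets at 0.986 to 0.994. Of 10 pluripotent-cell markers, all were measured and 0 changed over both cell types or between the cell types, where 2.5% and 2.87% of all probe sets passed. Nanog, a core pluripotency factor, was the highest of them, between 10.49 and 10.62 in the 4 group means. Pou5f1 lay between 5.93 and 6.09, and Dppa5a, the lowest, between 3.87 and 4.01. A level cannot be set against background because the values carry no detection calls.

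Abcb1a, Abcb1b and Abcb4 lie side by side on the forward strand of chromosome 5, and the bases before their start sites are shown because Abcb1b fell in the high fraction while Abcb1a and Abcb4 did not pass the test. The windows are the 250 bases before each annotated start (RefSeq, build GRCm38.p6), printed 5′ to 3′, at chr5:8566841-8567090 for Abcb1a, chr5:8797897-8798146 for Abcb1b and chr5:8893471-8893720 for Abcb4. Capitals mark the motifs found on either strand.
Abcb1a: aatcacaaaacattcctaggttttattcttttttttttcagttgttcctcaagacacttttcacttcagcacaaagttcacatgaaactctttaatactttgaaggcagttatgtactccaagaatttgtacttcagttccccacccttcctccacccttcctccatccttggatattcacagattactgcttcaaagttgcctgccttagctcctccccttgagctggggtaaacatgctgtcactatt
Abcb1b: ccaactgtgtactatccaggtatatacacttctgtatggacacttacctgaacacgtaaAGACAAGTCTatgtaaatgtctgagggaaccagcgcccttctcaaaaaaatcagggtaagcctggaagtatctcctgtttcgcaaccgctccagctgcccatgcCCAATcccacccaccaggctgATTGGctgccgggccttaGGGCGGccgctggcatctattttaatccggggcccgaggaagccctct
Abcb4: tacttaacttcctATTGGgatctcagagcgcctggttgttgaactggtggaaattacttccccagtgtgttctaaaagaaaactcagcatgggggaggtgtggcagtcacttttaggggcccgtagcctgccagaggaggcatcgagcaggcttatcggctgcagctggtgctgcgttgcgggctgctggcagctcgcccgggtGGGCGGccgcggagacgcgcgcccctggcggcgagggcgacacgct
The motifs searched were the GC box (GGGCGG), the CCAAT box (CCAAT), the TATA box (TATAAA), the AP-1 site (TGANTCA) and the p53 half-site. Over all 32851 promoter windows of that length, 32.7% held the GC box, 33.8% the CCAAT box, 12.4% the TATA box, 6.75% the AP-1 site and 7.13% the p53 half-site. The Abcb1b window held 1 GC box (bases -48 to -43 from the start), 2 CCAAT boxes (-87 to -83 and, on the reverse strand, -66 to -62) and 1 p53 half-site match (-191 to -182), with no overlap between them. The Abcb1a window held none of the 5 motifs and 0 CpG dinucleotides, at a GC content of 40.4%. It was the only Abcb1a window listed, and the neighbouring gene Rundc3b overlaps Abcb1a in the gene table. Whether these cells start Abcb1a there was not tested, so the window may not be the promoter in use. Abcb4, with 61.6% GC and 18 CpG, held 1 GC box and 1 CCAAT box, and Abcb1b lay between, with 52.8% GC and 9 CpG (median over all windows, 52.4% GC). Such matches describe letters in a window and say nothing of binding. Windows were matched for 7 of the 9 genes, 10 windows in all, and Abcc2 was the other gene with a p53 half-site match (-41 to -32).

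Abcb1b, a P-glycoprotein gene, was the pump whose mRNA differed with dye content. In ESC its log2 values were 5.09, 5.83 and 5.44 in low replicates 2, 3 and 4, and 4.61, 4.67 and 5.01 in the high ones. In iPSC they were 6.40, 5.28 and 6.25 in low and 5.06, 4.41 and 4.97 in high. In both cell types the high arrays all lay below the low arrays; iPSC low replicate 3 lay about a log2 unit below the other iPSC low arrays but still above every iPSC high array. Such a pattern, high below low without overlap in both cell types, was seen in 1.83% of all probe sets and in 1 of the 9 pumps.

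**Figure D1:**
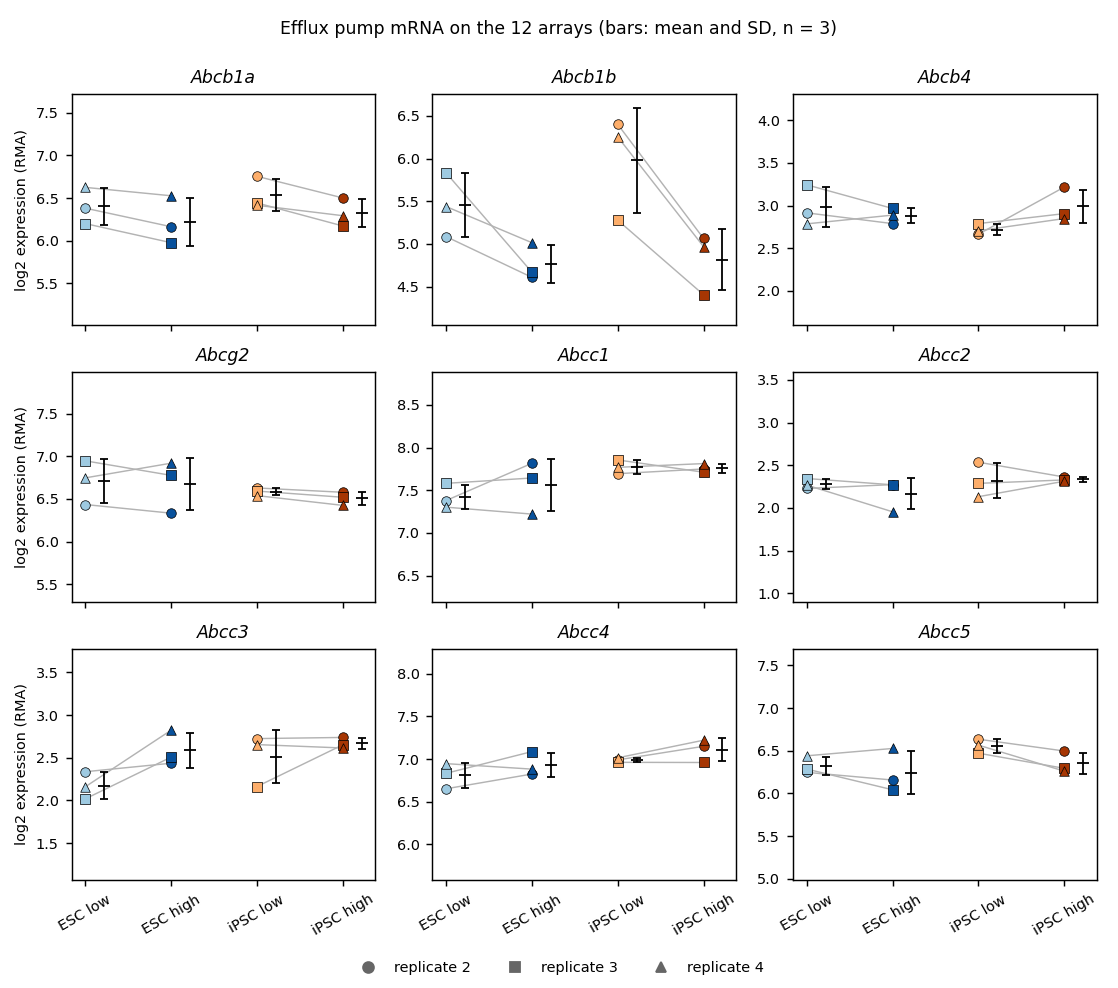
Log2 expression (RMA) of the 9 pumps on each of the 12 arrays, with grey lines joining low and high arrays of equal replicate number and black bars giving mean and SD of 3 arrays. Each panel spans an equal log2 range. Abcb1b falls from low to high along all 6 lines, with group means of 5.45 and 4.76 in ESC and of 5.98 and 4.81 in iPSC.

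Over both cell types Abcb1b fell by 0.93 ± 0.20 (SE) on the log2 scale (95% confidence interval -1.36 to -0.50; adjusted p = 0.0285, limma). The high fraction thus held 0.526 of the signal of the low fraction (interval 0.390 to 0.709). Among all probe sets, 2.5% passed this test in either direction and 0.905% as lower, against 1 of the 9 pumps. The call was lost when single arrays were left out: without ESC low replicate 3 (adjusted p = 0.0615, limma) or 4 (0.0605), ESC high replicate 2 (0.0713) or 3 (0.0731), iPSC low replicate 2 (0.0526) or 4 (0.0781), or iPSC high replicate 3 (0.0699) or 4 (0.0537). Over all 12 fits that left out an array, the difference itself stayed between -1.10 and -0.82. Those fits did not treat arrays of equal number as pairs. With such pairs, inferred from the data, and all 12 arrays, the difference was -0.93 ± 0.11 (SE; adjusted p = 0.00487, limma).

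Within each cell type alone Abcb1b did not pass. The ESC difference was -0.69 ± 0.28 (SE), from 5.45 ± 0.37 (SD, n = 3) in low to 4.76 ± 0.22 in high (adjusted p = 0.513, limma, where 0.357% of all probe sets passed). In iPSC the difference was -1.17 ± 0.28 (SE), from 5.98 ± 0.61 (SD, n = 3) to 4.81 ± 0.36 (adjusted p = 0.0877, limma, where 0.547% passed). With low and high arrays of equal number treated as pairs, the iPSC difference passed (adjusted p = 0.0211 with the replicate block, limma), and it also passed without iPSC low replicate 3, at -1.52 (adjusted p = 0.0399, limma). The iPSC difference less the ESC difference was -0.48 ± 0.40 (95% confidence interval -1.34 to 0.38; adjusted p = 0.9998, limma), so the data do not tell the sizes of the fall in the cell types apart. For that comparison 0% of probe sets passed, 0 by limma after adjustment and 1100 at an unadjusted p under 0.05, and at most 0.00397% passed under an alternative. Fewer cells with the transcript and less transcript per cell cannot be told apart in such sorted bulk RNA.

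By numbered pair, Abcb1b was lower in the high array in 6 of 6 pairs, by log2 differences of -0.48, -1.16 and -0.42 in ESC and -1.34, -0.87 and -1.29 in iPSC. Of all probe sets, 7.01% were lower in 6 of 6 pairs, and of the 9 pumps 2 were, Abcb1b and Abcb1a. The order of the group means of Abcb1b was iPSC low, ESC low, iPSC high and ESC high. The ranges of iPSC low and ESC low overlapped, as did those of iPSC high and ESC high, whereas the lowest ESC low array (5.09) lay just above the highest iPSC high array (5.06).

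Abcb1a, the other P-glycoprotein gene, had a smaller difference that did not pass. Its values in replicates 2, 3 and 4 were 6.38, 6.20 and 6.63 in ESC low and 6.16, 5.98 and 6.53 in ESC high. They were 6.75, 6.44 and 6.42 in iPSC low and 6.50, 6.17 and 6.29 in iPSC high. Low and high arrays overlapped in both cell types, although each high array lay below the low array of its number, by 0.10 to 0.27. The mean of the 6 pair differences was -0.20 ± 0.07 (SD), and the difference over both cell types was -0.20 ± 0.11 (SE; 95% confidence interval -0.44 to 0.05; adjusted p = 0.44, limma; 0.119 when the replicate block was fitted). As close paralogs, Abcb1a and Abcb1b may share probe signal, which was not tested.

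Abcb4, next to them on the chromosome, encodes a floppase that moves phosphatidylcholine into bile. It was dim, below the array medians: 2.91, 3.24 and 2.79 in ESC low, 2.79, 2.97 and 2.89 in ESC high, 2.66, 2.79 and 2.70 in iPSC low and 3.22, 2.91 and 2.85 in iPSC high. In iPSC the high arrays all lay above the low arrays, opposite to Abcb1b, while in ESC they overlapped. Neither the iPSC difference (0.27 ± 0.13, SE; adjusted p = 0.412, limma) nor that over both cell types (0.09 ± 0.09; adjusted p = 0.718, limma) passed.

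Abcg2, the breast cancer resistance protein, had overlapping low and high arrays in both cell types. In ESC it was at 6.43, 6.95 and 6.75 in low and 6.33, 6.78 and 6.92 in high. The iPSC values were 6.63, 6.59 and 6.54 in low and 6.58, 6.52 and 6.42 in high, so all iPSC arrays lay inside the range of the ESC arrays. The SD of its iPSC groups (0.05 in low and 0.08 in high) was smaller than that of its ESC groups (0.26 and 0.31). The difference over both cell types was -0.06 ± 0.11 (SE; 95% confidence interval -0.29 to 0.18; adjusted p = 0.859, limma), with 5 of 6 pairs lower in high.

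Among the Abcc genes, Abcc1 and Abcc4 had overlapping low and high arrays in each cell type and did not pass. Abcc1, a widely expressed exporter of glutathione conjugates and leukotrienes, was at 7.38, 7.58 and 7.30 in ESC low and 7.82, 7.64 and 7.22 in ESC high. Its iPSC values were 7.69, 7.86 and 7.77 in low and 7.75, 7.71 and 7.81 in high. The high minus low difference over both cell types was 0.06 ± 0.10 (SE; adjusted p = 0.818, limma), from 0.14 ± 0.14 in ESC and -0.01 ± 0.14 in iPSC. Abcc4, which exports cyclic nucleotides and prostaglandins, was at 6.65, 6.83 and 6.95 in ESC low and 6.82, 7.09 and 6.88 in ESC high. The iPSC arrays gave 6.99, 6.96 and 7.01 in low and 7.15, 6.96 and 7.22 in high. Its difference was 0.12 ± 0.08 (SE; adjusted p = 0.499, limma).

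Abcc5, an exporter of cyclic nucleotides and folates, ran the other way without passing. It was at 6.25, 6.29 and 6.44 in ESC low and 6.16, 6.04 and 6.53 in ESC high, and at 6.64, 6.47 and 6.57 in iPSC low and 6.50, 6.29 and 6.26 in iPSC high. The difference was -0.14 ± 0.09 (SE; 95% confidence interval -0.34 to 0.05; adjusted p = 0.483, limma), with 5 of 6 pairs lower in high. In iPSC only the highest high array (6.50) reached into the range of the low arrays.

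Abcc2 and Abcc3, known from the canalicular and basolateral membranes of hepatocytes, were dim in these cells, with all group means under the array medians and those of Abcc2 in ESC high and Abcc3 in ESC low (2.17 each) among the lower quartiles. Abcc2 was at 2.23, 2.35 and 2.27 in ESC low, 2.27, 2.27 and 1.95 in ESC high, 2.54, 2.29 and 2.13 in iPSC low and 2.36, 2.33 and 2.31 in iPSC high, with a difference of -0.05 ± 0.08 (SE). Abcc3 was the pump with the most positive difference over both cell types and in ESC, but in iPSC that was Abcb4. It was at 2.34, 2.02 and 2.16 in ESC low and 2.44, 2.51 and 2.82 in ESC high, without overlap, and at 2.72, 2.16 and 2.65 in iPSC low and 2.74, 2.65 and 2.61 in iPSC high, with overlap. Over both cell types its difference was 0.29 ± 0.11 (SE; 95% confidence interval 0.05 to 0.52; adjusted p = 0.215, limma), and in ESC it was 0.42 ± 0.15 (adjusted p = 0.441, limma). Neither passed.

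**Figure D2:**
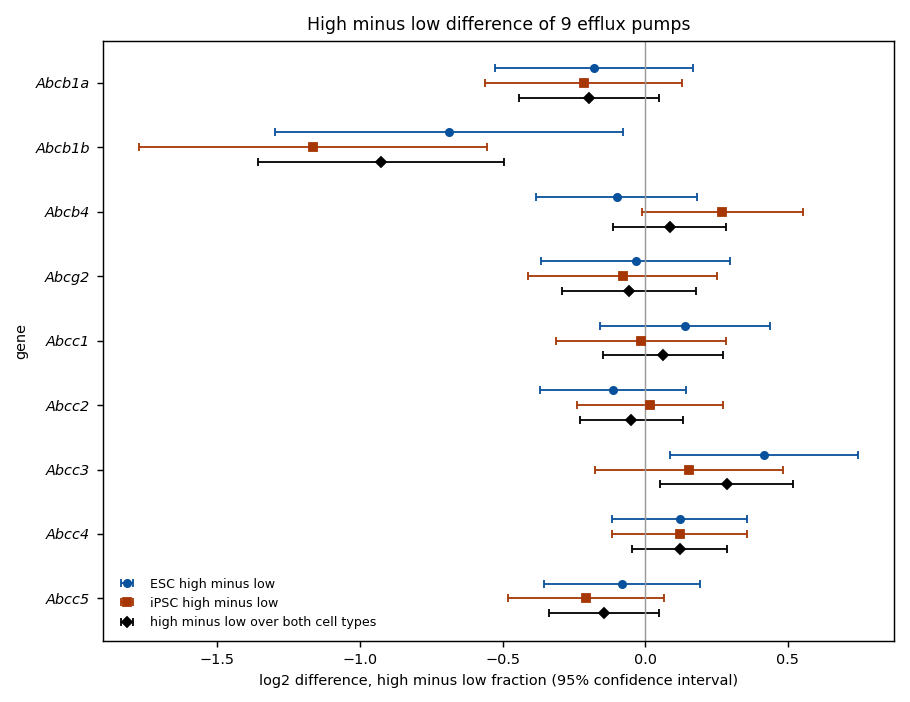
Differences between the high and the low fraction (log2, horizontal axis) for the 9 pumps in ESC, in iPSC and over both, with 95% confidence intervals from limma. The intervals of Abcb1b lie below 0 in all 3 comparisons; over both cell types those of the other pumps lie between -0.44 and 0.52.

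Counted together, 4 of the 9 pumps were above 0 over both cell types, with a median of -0.05 (0.00 over all probe sets), 1 fell and 0 rose. Low and high arrays did not overlap for 2 of the 9 pumps in ESC (Abcb1b and Abcc3; 13.1% of all probe sets) and for 2 of 9 in iPSC (Abcb1b and Abcb4; 19.3%). At an unadjusted p under 0.05 there were 2 pumps over both cell types (Abcb1b and Abcc3; 15.6% of all probe sets), the same 2 in ESC (8.29%) and 1 in iPSC (Abcb1b; 12.7%), so these counts were near the background.

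The change of Abcb1b over both cell types was set beside that of each other pump as a description with no test, since Abcb1b was picked after its values were seen. Its change less that of the other pump was -0.73 for Abcb1a, -0.78 for Abcc5, -0.87 for Abcg2 and -1.21 for Abcc3, with the other 4 between those of Abcg2 and Abcc3. It was more negative in 6 of 6 numbered pairs against each of the 8.

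Between cell types, no pump passed. Of all probe sets, 2.87% passed for iPSC minus ESC over both fractions, 0.397% between the low fractions and 0.186% between the high fractions, against 0 of the 9 pumps in each. The pumps' median was 0.17 over both fractions (0.01 over all probe sets), and 7 of 9 were above 0. Abcc1 was at 0.27 ± 0.10 (SE; 95% confidence interval 0.07 to 0.48; adjusted p = 0.183, limma) and Abcc4 at 0.18 ± 0.08 (adjusted p = 0.299, limma). Abcb1b was at 0.29 ± 0.20 (adjusted p = 0.577, limma), made up of 0.53 ± 0.28 between the low fractions and 0.05 ± 0.28 between the high ones. The pumps below 0 were Abcg2 (-0.15 ± 0.11) and Abcb4 (-0.08 ± 0.09). For Abcc1 and Abcc4 the ESC low mean was the lowest of the 4 groups. The 3 iPSC low arrays lay above all 3 ESC low arrays for 3 of the 9 pumps, Abcc1, Abcc4 and Abcc5, where 15.8% of all probe sets did not overlap between these groups in either direction.

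The rest of the ABC superfamily gave a count near the background. Of 42 measured ABC transporters other than the pumps, 0 rose and 0 fell over both cell types, where 2.5% of all probe sets passed; their differences ran from -0.23 to 0.24 around a median of 0.01 (0.00 over all probe sets), with 23 above 0. Among 12 measured ABCB and ABCC genes, the potassium channel subunit Abcc9 was at 0.17 ± 0.07 (SE) and Abcb5, a relative of P-glycoprotein, at -0.23 ± 0.12. Of 5 ABCG genes, the sterol exporter Abcg5 was at 0.24 ± 0.09 and Abcg4 at 0.17 ± 0.11. Of 16 ABCA lipid transporters, Abca3, which fills surfactant granules, was at -0.17 ± 0.08 and Abca14 at 0.13 ± 0.07. The 7 ABCD, ABCE and ABCF genes included the peroxisomal Abcd2 (0.19 ± 0.09) and the translation factor Abcf1 (-0.09 ± 0.06), and the peptide transporters of antigen presentation were at -0.23 ± 0.11 (Tap1) and 0.00 ± 0.09 (Tap2). Within ESC, within iPSC and between the cell types, 0 of these 42 genes passed either, where 0.357%, 0.547% and 2.87% of all probe sets passed.

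**Figure D3:**
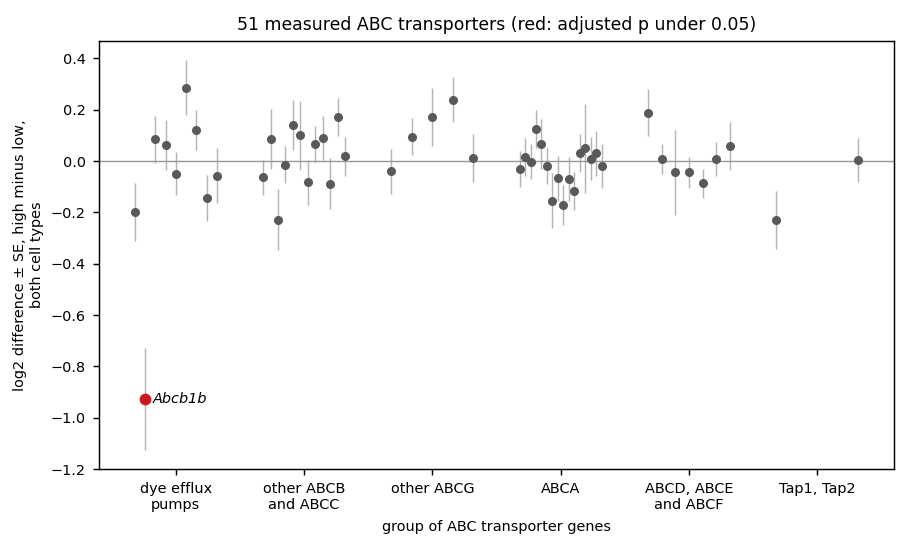
High minus low difference over both cell types (log2, with SE bars) for the 51 measured ABC transporters, grouped along the horizontal axis. Abcb1b, in red, is at -0.93 and the gene past the threshold; the 42 transporters outside the pump group lie between -0.23 and 0.24.

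Genes that work beside the pumps were also counted. For comparison, 2.5% of all probe sets passed with dye content over both cell types and 2.87% for iPSC minus ESC over both fractions. Organic cation and anion carriers of the Slc and Slco families bring dyes and drugs into cells or hand them out: of 13 measured, 0 changed with dye content, with the proton-coupled exporter Slc47a2 at -0.26 ± 0.10 (SE) and the organic anion carrier Slco4a1 at -0.26 ± 0.12. Slco4a1 differed between the cell types instead, rising by 1.14 ± 0.12 in iPSC (adjusted p = 0.000974, limma), from means of 4.75 and 4.51 in ESC low and high to 5.92 and 5.63 in iPSC low and high. Of 16 measured regulators of pump genes, 0 changed in either respect; the forkhead factor Foxo3 was at -0.21 ± 0.08 and the retinoid receptor Rxrb at 0.17 ± 0.07 with dye content. Of 8 measured proteins that anchor or modify pumps at the membrane, 0 changed with dye content, with the actin linkers Rdx at -0.15 ± 0.06 and Msn at -0.13 ± 0.06. In iPSC over ESC 2 of these rose, Msn by 0.37 ± 0.06 (adjusted p = 0.00687, limma) and the scaffold Slc9a3r1 by 0.42 ± 0.10 (adjusted p = 0.0417, limma). The Slc9a3r1 call held without ESC low replicate 3 (0.0223) or ESC high replicate 3 (0.0355) and was lost without each of the other 10 arrays (0.0531 to 0.113), after median centring (0.0527) and with the replicate number as a block over all arrays (0.0501). Of 16 measured enzymes of glutathione metabolism, conjugation and related stress responses, some of which make substrates of the Abcc pumps, 0 changed. The heme oxygenase Hmox1 was at -0.24 ± 0.07 and glutathione synthetase Gss at 0.28 ± 0.12.

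The genes around Abcb1b on chromosome 5 mostly had smaller differences below 0. In gene order the measured neighbours were Sri, Adam22, Dbf4, Slc25a40 and Rundc3b before Abcb1a, and Crot, Tmem243, Dmtf1, Elapor2 and Grm3 after Abcb4. Over both cell types 8 of these 10 were below 0 (median -0.17), 1 fell and 0 rose. Of all probe sets 2.5% passed that comparison, 0.905% as lower. The neighbour that fell was Slc25a40, a mitochondrial carrier linked to glutathione import, by 0.52 ± 0.10 (SE; adjusted p = 0.0205, limma). Its values were 6.14, 6.62 and 6.19 in ESC low, 5.72, 5.98 and 5.96 in ESC high, 6.28, 6.07 and 6.23 in iPSC low and 5.82, 5.53 and 5.39 in iPSC high, with no overlap in either cell type. It no longer passed without ESC high replicate 2 (0.0536), iPSC low replicate 4 (0.0527), iPSC high replicate 3 (0.0538) or iPSC high replicate 4 (0.0558). Rundc3b (-0.35 ± 0.12), Tmem243 (-0.21 ± 0.08) and the cyclin-D-binding factor Dmtf1 (-0.27 ± 0.07; adjusted p = 0.0558, limma) did not pass but were lower in 6 of 6 pairs, as was Slc25a40: 4 of 10 neighbours against 7.01% of all probe sets. The median over the 1311 named probe sets of chromosome 5 was -0.01. In the gene table Rundc3b overlaps Abcb1a and Tmem243 overlaps Dmtf1, and whether their probes share signal was not tested.

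Between the cell types 1 of these 10 neighbours passed, as lower in iPSC, where 2.87% of all probe sets passed in either direction. For iPSC minus ESC, 7 of the 10 neighbours were below 0 (median -0.21), and Crot, a peroxisomal carnitine acyltransferase, fell by 0.31 ± 0.07 (SE; adjusted p = 0.0395, limma). The Crot call held without ESC low replicate 3 (0.0401) and was lost without each of the other 11 arrays (0.0509 to 0.109). Chromosome 5 as a whole had a median of -0.12, and of its 1311 named probe sets 199 were lower and 8 higher in iPSC. The share of calls was thus larger on this chromosome than over all probe sets. Abcb1a and Abcb1b, at 0.12 ± 0.11 and 0.29 ± 0.20, lay above 0 there, but their intervals (-0.13 to 0.36 and -0.14 to 0.72) include the chromosome's median.

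**Figure D4:**
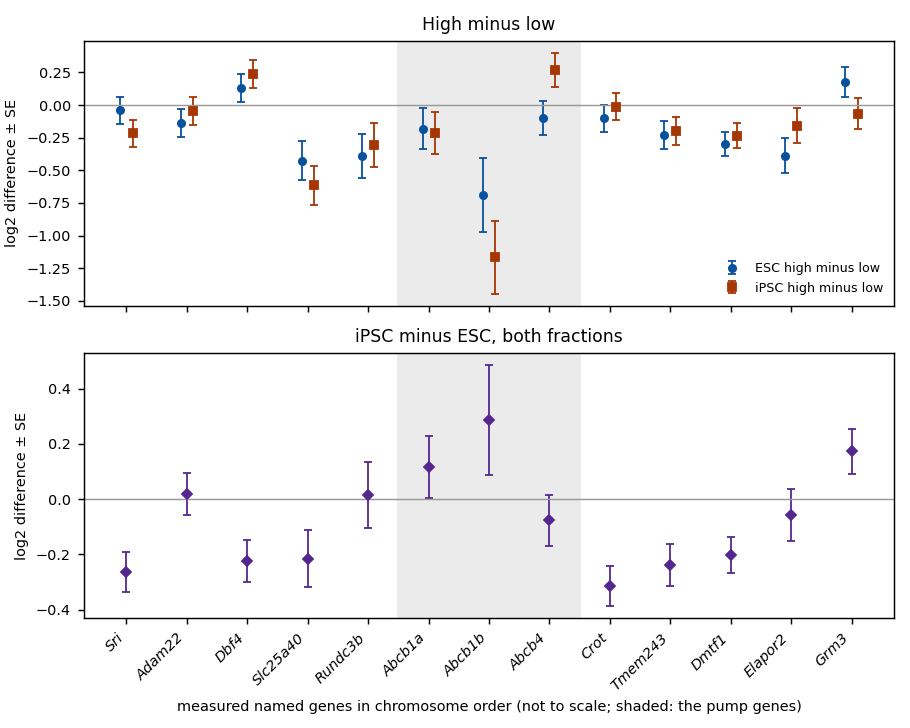
Log2 differences with SE for Abcb1a, Abcb1b, Abcb4 (shaded) and the 5 measured genes on each side, in chromosome order and not to scale. The upper panel gives high minus low in ESC (circles) and iPSC (squares), where Abcb1b is the most negative gene in both (-0.69 and -1.17); the lower panel gives iPSC minus ESC, where 7 of the 10 neighbours are below 0.

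Genes with the profile most like that of Abcb1b were found by the root mean square difference between the profiles over the 12 arrays, each gene taken about its own mean. The nearest of 19410 named probe sets was Glp1r, the receptor of the incretin GLP-1, at 0.181 log2 units, where Abcb1b itself varied by 0.603 about its mean. Its values were 5.22, 5.83 and 5.36 in ESC low, 4.33, 4.93 and 4.89 in ESC high, 6.17, 5.52 and 6.52 in iPSC low and 5.24, 4.50 and 5.05 in iPSC high. As for Abcb1b, iPSC low replicate 3 was the lowest of its group and high lay below low without overlap in both cell types. Glp1r fell by 0.95 ± 0.19 (SE) over both cell types (adjusted p = 0.0205, or 0.0510 without ESC high replicate 2, limma). The next were the receptor phosphatase Ptprv (0.267), Plekhg1 (0.270), the TGF-beta co-receptor Eng (0.287) and Arap2 (0.294), a regulator of small GTPases.

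Arap2 fell by 0.92 ± 0.14 (SE; adjusted p = 0.00498, limma), and without each single array it still passed. Ptprv fell by 0.67 ± 0.16 (adjusted p = 0.0472, limma; 0.0528 when the replicate block was fitted); its call held without ESC low replicate 2 (0.0423) or iPSC low replicate 3 (0.00328) and was lost without each of the other 10 arrays (0.0739 to 0.112). Plekhg1 (-0.56 ± 0.18) and Eng (-0.55 ± 0.18) did not pass. Since likeness was measured on the same 12 arrays, these falls are a description of the profile shared with Abcb1b. Among the other pumps the nearest were Abcc5 (0.502, rank 503) and Abcb1a (0.504, rank 541).

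**Figure D5:**
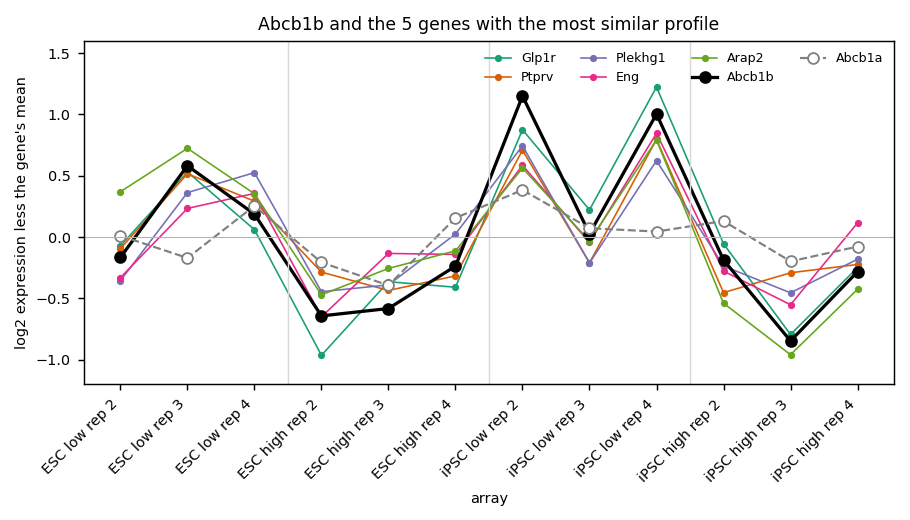
Log2 expression less each gene's own mean on the 12 arrays for Abcb1b (thick black), the 5 genes with the most similar profile (colours) and Abcb1a (dashed grey); vertical lines separate the 4 groups. The coloured lines follow Abcb1b at distances of 0.181 to 0.294 log2 units, while Abcb1a, at 0.504, stays flatter.

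Markers of other cell types were counted beside the fall of Abcb1b, since P-glycoprotein is abundant in endothelium, liver and gut. As background for these counts, 2.5% of all probe sets passed with dye content over both cell types. For iPSC minus ESC over both fractions 2.87% passed. Of 8 measured endothelial markers 1 fell in the high fraction, Tek, by 0.53 ± 0.11 (SE; adjusted p = 0.0219, limma), with ESC means of 2.92 in low and 2.49 in high and iPSC means of 3.52 and 2.89. It no longer passed without ESC low replicate 2 (0.0562), ESC high replicate 3 (0.0620), iPSC low replicate 3 (0.0604), iPSC high replicate 3 (0.0507) or iPSC high replicate 4 (0.0617). The summed log2 level of the endothelial list ran from 17.1 to 19.1 in ESC low, 17.5 to 18.4 in ESC high, 18.4 to 18.6 in iPSC low and 18.1 to 19.6 in iPSC high, and its defining cadherin Cdh5 had group means of 2.02 to 2.25. High minus low, Cldn5 was at 0.28 in ESC and 0.33 in iPSC, Esam at 0.18 and 0.48 and Cdh5 at 0.23 and 0.08. Slco1a4 was at -0.04 and 0.21 and Tie1 at -0.27 and 0.05. Emcn (0.00 and 0.04) and Mfsd2a (0.00 and -0.09) were near 0. Of 7 measured blood and macrophage markers 1 rose, Cd68, by 0.82 ± 0.09 (adjusted p = 0.000828, limma). Cd68 had group means of 8.02 and 8.99 in ESC low and high, and 8.51 and 9.18 in iPSC. All 4 lay above the arrays' upper quartile. The summed level of the blood and macrophage list ran from 29.1 to 29.9 in ESC low, 30.3 to 30.7 in ESC high, 29.2 to 30.7 in iPSC low and 30.23 to 31.05 in iPSC high. Its defining marker Ptprc (CD45) had group means of 1.56 to 1.82, below the arrays' lower quartile. Csf1r (2.71 to 2.96), Adgre1 (1.92 to 2.03), Itgam (3.05 to 3.36) and Tal1 (2.60 to 2.70) lay below the arrays' medians, and Kit (8.89 to 9.37) above the upper quartile. High minus low, Cd68 was at 0.96 in ESC and 0.67 in iPSC, the largest difference in this list. The other markers ran from -0.18 (Ptprc) to 0.13 (Kit) in ESC and from -0.28 (Itgam) to 0.16 (Csf1r) in iPSC. Of 8 measured hepatocyte and intestine markers 0 changed, but their summed level was higher in high without overlap in both cell types, at 23.49 to 23.86 in ESC low, 24.12 to 24.57 in ESC high, 22.65 to 24.33 in iPSC low and 24.61 to 25.65 in iPSC high; albumin (Alb) had group means of 1.72 to 1.95, below the lower quartile. Of 10 fibroblast, 8 trophectoderm and 8 primitive endoderm markers 0 changed, and the summed levels of these lists, like that of the endothelial list, overlapped between low and high in both cell types. Between the cell types Tek (0.50 ± 0.11) and the hepatic factor Hnf4a (0.67 ± 0.10) were higher in iPSC, and the intestinal factor Cdx1 (-0.70 ± 0.11) and the receptor Kit (-0.38 ± 0.06) lower, all past the threshold in limma. The Tek call there was lost without ESC high replicate 3 (0.0652), iPSC low replicate 2 (0.0516) or 3 (0.0638), or iPSC high replicate 2 (0.0652) or 3 (0.0594). Whether any endothelial, blood or hepatocyte-like cells were present, or had a part in the Abcb1b difference, was not tested.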

How the data were processed

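Total RNA of 12 sorted samples was labelled with biotin and hybridised to Affymetrix arrays, per the labels. The deposited table holds log2 expression values that the authors made with RMA (affy 1.36.1 in R 2.15.1, per the submitters' processing notes); RMA corrects background, quantile-normalizes arrays together and summarises probes, which removes differences in total signal between arrays. For the chip definition and genome build, nothing was given in the sources used here. Precision is limited by the number of arrays. Of 25206 probe sets 23185 had 1 symbol in the platform annotation, 2021 had none, and a reference table (GRCm38.p6) changed 0 symbols.

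From these values limma 3.58.1 (R 4.3.3) fitted all 12 arrays together, 1 mean for each group and no block, with Benjamini-Hochberg adjustment over all probe sets of a comparison (threshold 0.05). Errors are SE of differences from that fit or SD of 3 arrays. The fit without a block was tested on simulated data with independent noise on each array. That test does not cover arrays that are paired. Whether replicate numbers pair low with high arrays was checked on residuals: arrays of equal number correlated at 0.233 to 0.341 in ESC and 0.107 to 0.213 in iPSC, those of other numbers at no more than 0.00255. The pairing is inferred from the data, and blocked values are given where they change a call.

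The pumps and the lists of related genes and markers were chosen with earlier results of these data known. Named were all 9 pumps; from each list the genes past the threshold, otherwise the 2 with the lowest p with dye content; the 5 measured genes on each side of the Abcb1 cluster; and the 5 genes most like Abcb1b. List genes without a named probe set were not analysed here. Alternatives were the replicate block, an intensity trend, centring, scaling, a filter on dim probe sets, a fit on the arrays compared alone and leaving out each array. Plots were made in Python 3.11.15 (matplotlib 3.10.9).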

Additional observations from a re-analysis of the deposited data

How the results depend on the processing

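For high minus low over both cell types, the count of pumps past the threshold was 1 with the replicate block within cell type, the intensity trend, centring, scaling and the dim-probe filter, and 0 to 1 when single arrays were left out. In iPSC the count was 0, but 1 with the replicate block and 0 to 1 over the left-out arrays; the cause was not tested. No other count of pumps changed. Differences near 0 changed sign: in iPSC, Abcc2 was at -0.042 after median centring and -0.089 after scaling, and Abcc1 at 0.077 after scaling. Leaving out single arrays gave -0.20 to 0.031 for Abcb4 in ESC, -0.0017 to 0.15 for Abcc1 over both cell types and -0.054 to 0.026 in iPSC, -0.096 to 0.0054 for Abcc2 over both and -0.077 to 0.12 in iPSC, -0.021 to 0.26 for Abcc3 in iPSC, -0.22 to 0.018 for Abcc5 in ESC, and -0.17 to 0.14 for Abcg2 in ESC and -0.12 to 0.029 over both. The block could not be fitted for iPSC minus ESC with pairs kept within a cell type, since pairs lie inside cell types. The dim-probe filter gave no value for Abcb4, Abcc2 and Abcc3. The share of all probe sets called over both cell types ran from 1.51% to 4.95% over the alternatives.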
